A study of Arabidopsis thaliana with 6 samples.

Results

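The 9 ATG8 genes of Arabidopsis thaliana, ATG8A to ATG8I, and NBR1, a selective autophagy receptor, were followed in whole seedlings that had glutamate or ammonium nitrate as their nitrogen source. These 10 genes were taken by their locus identifiers from the 33602 genes of the deposited table, and all 10 had values in every library. They are ATG8A (AT4G21980), ATG8B (AT4G04620), ATG8C (AT1G62040), ATG8D (AT2G05630), ATG8E (AT2G45170), ATG8F (AT4G16520), ATG8G (AT3G60640), ATG8H (AT3G06420), ATG8I (AT3G15580) and NBR1 (AT4G24690). The glutamate group was seedlings of the Columbia ecotype grown for 12 days on agar with 5 mM glutamate, and the ammonium nitrate group was seedlings of the same ecotype and age on 5 mM ammonium nitrate. Both media held modified Murashige and Skoog salts free of nitrogen and 0.5% sucrose, so no other nitrogen salt was present, and no mutant was included. Each group had 3 libraries of total RNA. The plates supplied 5 mM nitrogen on glutamate and 10 mM on ammonium nitrate, so the form and the amount of nitrogen cannot be told apart. Nothing in the labels ties the libraries to separate plates or cultures, so the spread behind each p-value is that between these libraries and may be technical. The libraries held 49688741 to 63424604 reads on glutamate and 49520259 to 51409340 on ammonium nitrate, as recovered from the deposited values.

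Autophagy carries cytoplasm, protein aggregates and organelles to the vacuole for breakdown, and it is known in plants for recycling nitrogen when supply is short and during senescence. ATG8 is a small ubiquitin-like protein that is joined to the lipid phosphatidylethanolamine on the growing autophagosome, where it recruits receptors and helps the membrane expand. NBR1 binds ubiquitin on its cargo and ATG8 on the membrane, and is itself degraded in the vacuole with what it carries. RNA levels alone do not measure how much material is delivered to the vacuole.

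The ATG8 genes differ in how their proteins must be prepared for lipid joining, and the end of each coding sequence shows this. The lipid is attached to a glycine near the protein's end, and in most ATG8 proteins the residues after it are first cut away by an ATG4 peptidase. RefSeq has 2 coding forms for each of ATG8A, ATG8C, ATG8D and ATG8F. The form nearest to the median length over all ATG8 coding forms was used here and below. The last 36 bases of each RefSeq coding sequence, stop codon included, are given 5′ to 3′, with the codon of that glycine in capitals.
ATG8A: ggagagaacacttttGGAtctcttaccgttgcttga
ATG8B: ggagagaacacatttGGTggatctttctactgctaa
ATG8C: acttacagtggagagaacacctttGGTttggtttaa
ATG8D: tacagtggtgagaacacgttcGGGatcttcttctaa
ATG8E: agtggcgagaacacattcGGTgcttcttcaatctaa
ATG8F: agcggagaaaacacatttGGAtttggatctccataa
ATG8G: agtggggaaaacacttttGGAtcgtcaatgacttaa
ATG8H: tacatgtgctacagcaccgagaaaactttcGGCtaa
ATG8I: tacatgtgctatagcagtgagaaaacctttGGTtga
In ATG8A and ATG8B 5 codons stood between the glycine codon and the stop codon, and in ATG8E, ATG8F and ATG8G there were 4. ATG8D had 3 and ATG8C had 2. In ATG8H and ATG8I the glycine codon was the last one before the stop codon, so their proteins end in the exposed glycine without a cut. These sequences are from the TAIR10.1 assembly and its RefSeq annotation, where ATG8A carries the symbol APG8A and ATG8I the symbol APG8H, with ATG8I as a synonym. On the plus strand of TAIR10.1 lie ATG8A at chr4:11655562-11657034, ATG8C at chr1:22932760-22934549, ATG8E at chr2:18624264-18625791, ATG8G at chr3:22415751-22417548 and NBR1 at chr4:12741032-12744670. On the minus strand lie ATG8B at chr4:2328442-2330590, ATG8D at chr2:2082894-2084905, ATG8F at chr4:9306339-9308538, ATG8H at chr3:1954990-1956397 and ATG8I at chr3:5273526-5275095.

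By sequence the family is usually grouped as ATG8A to ATG8D, ATG8E to ATG8G, and ATG8H with ATG8I, so the genes with an extension after the glycine make up the first groups. The 2 closest coding sequences were those of ATG8A and ATG8B, with 84.3% identical bases and a longest identical run of 53 bases. ATG8H and ATG8I were 66.1% identical to each other, and the most distant pair was ATG8G and ATG8I at 54.1%. The deposited table lists a share of multiply mapped reads of 0 for 9 of the 10 genes and of 0.00125 for ATG8H, so few or no reads of one copy were recorded as also matching another place.

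Seedlings on glutamate had higher levels of ATG8 and NBR1 RNA than seedlings on ammonium nitrate. Of the 10 genes, 9 rose, none fell, and ATG8C did not pass the threshold. The threshold was an adjusted p below 0.05 in limma's two-sided test on log2(RPKM + 1), with Benjamini-Hochberg adjustment over 20032 genes. The transcriptome as a whole differed widely: 71.8% of all genes tested were called by the same rule, 35.0% higher and 36.8% lower. The median log2 fold change was 0.44 over the 10 genes and -0.02 over all genes tested. For each of the 10 genes the lowest glutamate library was above the highest ammonium nitrate library. Over all genes tested, the groups were apart in this way for 76.1%, with glutamate higher for 36.9% and lower for 39.2%. Most of the increases were modest beside other genes called higher, whose median log2 fold change was 0.57. RPKM corrects read numbers for the length of the gene and the size of the library, and levels below are in this unit as mean ± SD over n = 3 libraries.

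**Figure D1:**
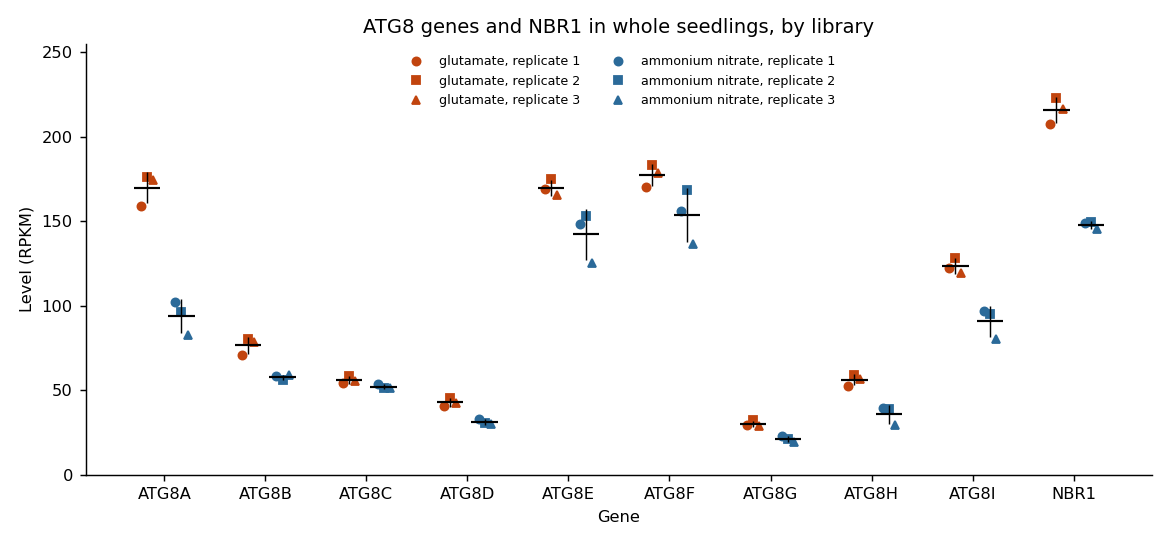
Levels of the 9 ATG8 genes and NBR1 in RPKM, with each library as a point, the mean as a horizontal bar and the SD as a vertical line (n = 3 libraries per group). All 3 glutamate points lie above all 3 ammonium nitrate points in each gene, widely so for ATG8A and NBR1 and narrowly for ATG8C.

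ATG8A changed most. It had 159.3, 176.0 and 174.8 RPKM in the glutamate libraries 1, 2 and 3, against 102.5, 96.2 and 82.9 RPKM in the ammonium nitrate libraries 1, 2 and 3. The lowest glutamate library was thus well above the highest ammonium nitrate library. The mean was 170.0 ± 9.28 RPKM on glutamate and 93.9 ± 10.02 RPKM on ammonium nitrate, a ratio of 1.81, with a log2 fold change of 0.85 ± 0.08 (SE, 95% interval 0.67 to 1.04, adjusted p = 3.07e-05). Of all genes called higher, 33.0% had a larger log2 fold change. In RefSeq the last exon of ATG8A shares 27 bases with APR3, a sulfate assimilation gene on the opposite strand, which had 38.9 ± 2.98 RPKM on glutamate and 19.3 ± 0.969 RPKM on ammonium nitrate. The sources used here do not say whether reads were counted by strand, so reads in these bases cannot be assigned to either gene.

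Its nearest relative, ATG8B, rose less. ATG8B had 70.9, 80.4 and 78.7 RPKM in the glutamate libraries and 58.4, 56.1 and 58.9 RPKM in the ammonium nitrate libraries. The ammonium nitrate libraries lay close together, below all of the glutamate libraries. The ratio of means was 1.33, with a log2 fold change of 0.40 ± 0.06 (adjusted p = 0.00033). ATG8D, a less abundant copy, had 40.7, 45.7 and 42.3 RPKM on glutamate and 33.0, 30.7 and 29.9 RPKM on ammonium nitrate. Its ratio was 1.37 and its log2 fold change 0.45 ± 0.06 (adjusted p = 0.000235).

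ATG8C stood closest to no difference. It had 54.0, 58.7 and 55.5 RPKM in the glutamate libraries, against 53.9, 51.5 and 51.3 RPKM in the ammonium nitrate libraries. The lowest glutamate value and the highest ammonium nitrate value were nearly equal. The log2 fold change was 0.10 ± 0.05, with a 95% interval of -0.01 to 0.21 (adjusted p = 0.0965), so an increase of up to that upper bound was not excluded by these libraries. When each library was set to the same total of reads in place of the authors' scaling, its log2 fold change was 0.21 and it passed the threshold (adjusted p = 0.00619).

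ATG8E and ATG8F, among the most abundant copies in both groups, had the smallest increases that passed. ATG8E had 169.1, 175.0 and 165.5 RPKM on glutamate and 148.7, 153.2 and 125.1 RPKM on ammonium nitrate. Ammonium nitrate library 3 was the low one. The ratio was 1.19 and the log2 fold change 0.26 ± 0.08 (adjusted p = 0.0165), and without ammonium nitrate library 3 the log2 fold change was 0.17. ATG8F had 170.3, 183.2 and 178.5 RPKM on glutamate and 156.2, 168.3 and 136.6 RPKM on ammonium nitrate, again with library 3 the lowest. Its ratio was 1.15 and its log2 fold change 0.21 ± 0.08 (adjusted p = 0.0386). The ATG8F call was lost on leaving out any of 4 single libraries: adjusted p was 0.101 without glutamate library 2, 0.0916 without glutamate library 3, 0.064 without ammonium nitrate library 1 and 0.109 without ammonium nitrate library 3. Its log2 fold change was 0.19, 0.20 and 0.22 in the first 3 of these and 0.13 without ammonium nitrate library 3. With glutamate library 2 and ammonium nitrate library 3 both left out, an alternative chosen after seeing the data, ATG8E also missed the threshold, with a log2 fold change of 0.15 (adjusted p = 0.0818).

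ATG8G was the least abundant ATG8 gene in every library. It had 29.4, 32.3 and 28.7 RPKM on glutamate and 23.2, 21.1 and 19.6 RPKM on ammonium nitrate. Although it belongs with ATG8E and ATG8F by sequence, its ratio of 1.41 was nearer to that of ATG8D. The log2 fold change was 0.48 ± 0.07 (adjusted p = 0.000423).

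Both genes whose proteins end in glycine rose. ATG8H had 52.6, 59.1 and 57.0 RPKM on glutamate and 39.5, 38.7 and 29.4 RPKM on ammonium nitrate. The ammonium nitrate libraries spread more widely than the glutamate libraries, with library 3 low. The ratio was 1.57 and the log2 fold change 0.64 ± 0.11 (adjusted p = 0.000822), the second largest of the 10 genes. ATG8I, the more abundant of the pair, had 122.4, 128.6 and 119.2 RPKM on glutamate and 97.2, 94.9 and 80.5 RPKM on ammonium nitrate. Its ratio was 1.36 and its log2 fold change 0.44 ± 0.08 (adjusted p = 0.000893). ATG8I shares 183 exon bases with AT3G15578 on the opposite strand. The values of AT3G15578, at most 0.0577 RPKM, are only the 0.5 read that the deposited values add to every gene, so no read was counted for it. As with ATG8A, reads in the shared bases cannot be assigned to either gene.

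NBR1 had the smallest adjusted p of the 10 genes. It had 207.5, 222.8 and 216.7 RPKM in the glutamate libraries, against 148.8, 149.4 and 145.3 RPKM in the ammonium nitrate libraries. The ammonium nitrate libraries lay close together, and the lowest glutamate library was far above the highest of them. The mean was 215.7 ± 7.68 RPKM on glutamate and 147.8 ± 2.24 RPKM on ammonium nitrate, a ratio of 1.46, with a log2 fold change of 0.54 ± 0.05 (SE, 95% interval 0.43 to 0.65, adjusted p = 1.71e-05). NBR1 was covered by 30232 to 37189 reads per library on glutamate and 18436 to 19144 on ammonium nitrate, the most of the 10 genes. By mean level over the 6 libraries it ranked 706 of the 20032 tested genes. Its last exon shares 101 bases with AT4G24700 on the opposite strand, which was at 0.706 ± 0.112 RPKM on glutamate and 1.78 ± 0.0909 RPKM on ammonium nitrate, far below NBR1.

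The order of the genes by level changed little between the nitrogen sources. On glutamate the order of mean RPKM was NBR1, ATG8F, ATG8A, ATG8E, ATG8I, ATG8B, ATG8H, ATG8C, ATG8D and ATG8G. The library ranges of ATG8F, ATG8A and ATG8E overlapped there, as did those of ATG8H and ATG8C. On ammonium nitrate the order of mean RPKM was ATG8F, NBR1, ATG8E, ATG8A, ATG8I, ATG8B, ATG8C, ATG8H, ATG8D and ATG8G. There the ranges of ATG8F, NBR1 and ATG8E overlapped, as did those of ATG8A and ATG8I and those of ATG8H and ATG8D. The range of ATG8A thus overlapped those of ATG8E and ATG8F on glutamate and that of ATG8I on ammonium nitrate. Compared within each library, ATG8F was above ATG8A in every glutamate library, while ATG8A and ATG8E changed places. ATG8A was above ATG8I in every ammonium nitrate library.

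The summed level of the 9 ATG8 genes was 868.6, 938.8 and 900.3 RPKM in the glutamate libraries and 712.6, 710.7 and 614.2 RPKM in the ammonium nitrate libraries. The mean sum was 902.6 ± 35.1 RPKM on glutamate and 679.2 ± 56.2 RPKM on ammonium nitrate, a ratio of 1.33. The makeup of the sum shifted toward ATG8A. ATG8A made up 18.8% ± 0.541 of the summed RPKM on glutamate and 13.8% ± 0.499 on ammonium nitrate. ATG8E and ATG8F together made up 38.5% ± 0.508 on glutamate and 43.5% ± 1.48 on ammonium nitrate, and their shares did not overlap between the groups. The share of ATG8C was 6.21% ± 0.0416 on glutamate and 7.72% ± 0.568 on ammonium nitrate. The share of ATG8H was 6.22% ± 0.151 on glutamate and 5.26% ± 0.407 on ammonium nitrate. For ATG8B, ATG8D, ATG8G and ATG8I the library ranges of the shares overlapped. A share falls when other copies rise more, so the lower shares of ATG8C, ATG8E and ATG8F went with levels that were not lower.

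**Figure D2:**
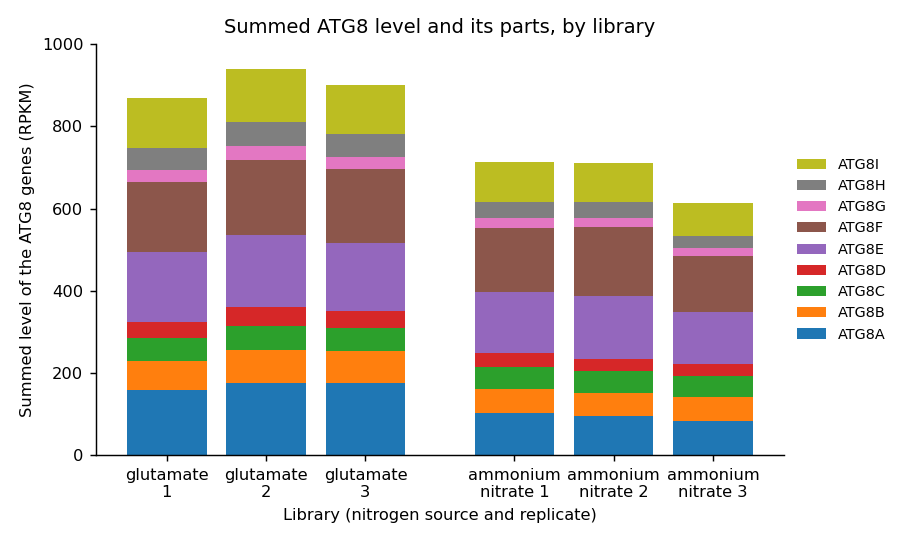
Summed level of the 9 ATG8 genes in RPKM in each of the 6 libraries, with each gene as one segment of the bar. The glutamate bars reach 868.6 to 938.8 RPKM and the ammonium nitrate bars 614.2 to 712.6 RPKM, and the ATG8A segment at the bottom takes 18.8% of the sum on glutamate and 13.8% on ammonium nitrate.

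Within a library, the ratio of 2 genes does not depend on how the libraries were scaled. The ratio of ATG8A to ATG8F was 0.936, 0.961 and 0.979 in the glutamate libraries and 0.656, 0.572 and 0.607 in the ammonium nitrate libraries. The ratio of ATG8A to ATG8E averaged 1.00 ± 0.0568 on glutamate and 0.66 ± 0.0306 on ammonium nitrate, and that of ATG8A to ATG8C averaged 3.03 ± 0.103 on glutamate and 1.80 ± 0.156 on ammonium nitrate. These 3 ratios were chosen after the values were seen, with the gene that changed most over the 3 that changed least, so they are given as a description with no test. By sequence group, ATG8A to ATG8D summed to 345.7 ± 18.5 RPKM on glutamate and 235.1 ± 12.5 RPKM on ammonium nitrate, a ratio of 1.47. The genes of this group differed, with ratios of 1.81 for ATG8A, 1.33 for ATG8B, 1.07 for ATG8C and 1.37 for ATG8D. ATG8E to ATG8G summed to 377.3 ± 11.5 RPKM on glutamate and 317.3 ± 32.0 RPKM on ammonium nitrate, a ratio of 1.19. ATG8H and ATG8I summed to 179.6 ± 7.02 RPKM on glutamate and 126.8 ± 14.6 RPKM on ammonium nitrate, a ratio of 1.42. NBR1 per unit of summed ATG8 was 0.239 ± 0.00173 on glutamate and 0.219 ± 0.0156 on ammonium nitrate, and ammonium nitrate library 3, at 0.237, lay just under the glutamate libraries.

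The libraries within a group also moved together across these genes. Glutamate library 2 was the highest of its group for all 10 genes, against 32.6% of all genes tested. Ammonium nitrate library 3 was the lowest of its group for 9 of the 10 genes, ATG8B being the exception, against 29.6% of all genes tested. Without both libraries, 7 of the 10 genes passed the threshold and the ratio of summed ATG8 was 1.24, against 1.33 with all libraries.

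The machinery that starts, feeds and loads the autophagosome was read from 6 lists of 65 genes, of which 62 passed the filter on level. In all 35 of the 62 rose, 6 fell and 21 missed the threshold, where 35.0% of all genes tested were called higher and 36.8% lower. The median log2 fold change was 0.19. Without glutamate library 1 the number that fell was 3, and with equal totals per library it was also 3 while 43 rose. Of the 65 entries, 22 carry no autophagy name in RefSeq and are given by locus identifier, with the product that RefSeq states.

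The ATG1 kinase complex starts autophagosome formation. Of its 8 genes 4 rose, against 35.0% of all genes tested, and none fell, with a median log2 fold change of 0.18. AT3G61960, annotated as a protein kinase, had 27.1, 27.5 and 30.1 RPKM on glutamate and 16.3, 15.6 and 16.9 RPKM on ammonium nitrate, a ratio of 1.73 (log2 fold change 0.76, adjusted p = 8.10e-06). ATG11, a scaffold of the complex, was at 16.4 ± 0.711 RPKM on glutamate and 10.4 ± 1.09 RPKM on ammonium nitrate, and rose by 0.62 on the log2 scale. ATG101, which binds ATG13, was at 32.2 ± 0.978 RPKM on glutamate and 22.4 ± 0.962 RPKM on ammonium nitrate, and rose by 0.50. The kinase AT2G37840 rose by 0.25. ATG13A had 16.9 ± 0.949 RPKM on glutamate and 17.1 ± 1.73 RPKM on ammonium nitrate and did not pass.

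The phosphatidylinositol 3-kinase complex marks the membrane on which the autophagosome grows. Of its 6 genes 3 rose and 1 fell, a small list to set against the 35.0% of all genes tested that were called higher. VPS34, the lipid kinase itself, was at 19.3 ± 0.719 RPKM on glutamate and 14.96 ± 1.02 RPKM on ammonium nitrate (log2 fold change 0.35, adjusted p = 0.0011). Of the listed pair AT1G77890 and AT4G08540, AT1G77890 was at 13.2 ± 1.49 RPKM on glutamate and 7.81 ± 0.353 RPKM on ammonium nitrate, with a log2 fold change of 0.68 (adjusted p = 0.00012). AT4G08540 was at 15.9 ± 0.664 RPKM on glutamate and 18.1 ± 0.645 RPKM on ammonium nitrate, with a log2 fold change of -0.18 (adjusted p = 0.0181). The call of AT4G08540 was lost with equal totals (log2 fold change -0.07, adjusted p = 0.279), and without glutamate library 1 or 2 or ammonium nitrate library 2 or 3, at adjusted p of 0.0506 to 0.0606. ATG6, the regulatory subunit, had a log2 fold change of 0.15 (adjusted p = 0.0342), and its call was lost without any one glutamate library or without ammonium nitrate library 3, at adjusted p of 0.063 to 0.11.

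ATG9 and ATG2 supply membrane and lipid, with ATG18 proteins as their partners on the membrane. Of the 6 lists this one had the largest share that rose: of the 9 genes tested 8 rose and none fell, with a median log2 fold change of 0.45. Over all genes tested, 35.0% were called higher and 36.8% lower. ATG9 had 17.1, 18.6 and 18.7 RPKM on glutamate and 10.3, 11.6 and 10.9 RPKM on ammonium nitrate, a ratio of 1.66 (log2 fold change 0.68, adjusted p = 2.55e-05). ATG18F was at 15.5 ± 0.823 RPKM on glutamate and 10.12 ± 0.131 RPKM on ammonium nitrate, and rose by 0.57 on the log2 scale. ATG2 was at 10.9 ± 0.487 RPKM on glutamate and 7.56 ± 0.574 RPKM on ammonium nitrate, and rose by 0.48. ATG18H rose by 0.45. ATG18B had 8.28 ± 0.0994 RPKM on glutamate and 9.21 ± 0.68 RPKM on ammonium nitrate and did not pass, and ATG18E was below the level filter.

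The conjugation list holds the enzymes that join ATG8 to its lipid and ATG12 to ATG5. Of its 9 genes 6 rose and none fell, against 35.0% higher and 36.8% lower over all genes tested. The median log2 fold change of the list was 0.28. ATG7, the enzyme that activates both ATG8 and ATG12, had 9.6, 10.6 and 10.3 RPKM on glutamate and 7.0, 6.3 and 5.8 RPKM on ammonium nitrate, a ratio of 1.60 (log2 fold change 0.60, adjusted p = 0.000158). ATG3, which passes ATG8 to the lipid, was at 35.1 ± 1.40 RPKM on glutamate and 28.8 ± 1.38 RPKM on ammonium nitrate, and rose by 0.28 on the log2 scale. AT3G59950, annotated as a peptidase of the ATG4 family, was at 27.9 ± 0.934 RPKM on glutamate and 19.3 ± 0.735 RPKM on ammonium nitrate, and rose by 0.51. ATG12A was at 38.4 ± 2.20 RPKM on glutamate and 23.1 ± 2.38 RPKM on ammonium nitrate, and rose by 0.71, while ATG12B rose by 0.46. The partner of ATG12, ATG5, did not pass and was at 24.6 ± 1.24 RPKM on glutamate and 25.1 ± 0.429 RPKM on ammonium nitrate. The enzyme that joins them, ATG10, had 11.4 ± 0.628 RPKM on glutamate and 11.7 ± 0.489 RPKM on ammonium nitrate and did not pass either.

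Beside NBR1, 14 other receptor or ATG8-binding genes were tested, of which 9 rose and 2 fell, against 35.0% higher and 36.8% lower over all genes tested. The median log2 fold change of these genes was 0.25. EXO70B1, an exocyst subunit, had 34.0, 24.2 and 32.3 RPKM on glutamate and 18.6, 18.4 and 18.1 RPKM on ammonium nitrate (log2 fold change 0.67, adjusted p = 0.000826). Glutamate library 2 was the low one for this gene. DSK2B, a ubiquitin receptor, was at 62.4 ± 1.18 RPKM on glutamate and 44.6 ± 1.90 RPKM on ammonium nitrate, and rose by 0.48 on the log2 scale. AT3G43230, a zinc finger protein, rose by 0.55, and AT1G20110, which has the synonym FYVE1, rose by 0.47. The paired ATG8-interacting proteins ATI1 and ATI2 went opposite ways: ATI2 was at 44.4 ± 1.86 RPKM on glutamate and 32.6 ± 1.201 RPKM on ammonium nitrate, whereas ATI1 was at 84.0 ± 2.91 RPKM on glutamate and 100.3 ± 2.02 RPKM on ammonium nitrate. ATI1 and ATI2 were chosen after their values were seen. TSPO was below the level filter.

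Of 16 tested upstream regulators 5 rose, 3 fell and 8 missed the threshold. A count of 5 of 16 is near the 35.0% of all genes tested that were called higher. The median log2 fold change was 0.07, and with equal totals per library 9 rose. TGA9, a bZIP transcription factor known in Arabidopsis to activate ATG8 genes, had 17.5, 18.9 and 18.9 RPKM on glutamate and 12.1, 12.4 and 9.96 RPKM on ammonium nitrate (log2 fold change 0.64, adjusted p = 0.000192). HY5, known in Arabidopsis as a repressor of ATG genes in light, was at 34.5 ± 0.685 RPKM on glutamate and 41.0 ± 1.67 RPKM on ammonium nitrate (log2 fold change -0.24, adjusted p = 0.00211). TOR, the kinase that holds autophagy down when nutrients suffice, was at 9.53 ± 0.869 RPKM on glutamate and 7.06 ± 0.995 RPKM on ammonium nitrate, and rose by 0.39 on the log2 scale. AT2G41980, annotated as a RING or U-box type protein, was at 13.4 ± 0.923 RPKM on glutamate and 19.4 ± 1.78 RPKM on ammonium nitrate, and fell by 0.50 on the log2 scale. KIN10, a catalytic subunit of the energy-sensing kinase SnRK1, was at 23.1 ± 0.635 RPKM on glutamate and 22.7 ± 0.739 RPKM on ammonium nitrate and did not pass.

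**Figure D3:**
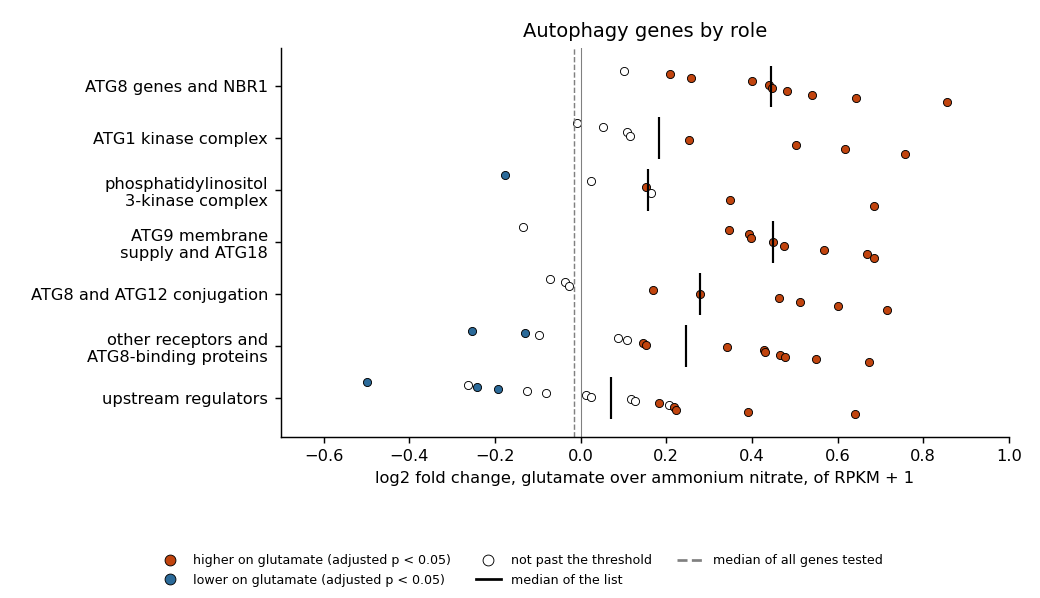
Log2 fold change of RPKM + 1, glutamate over ammonium nitrate, for the ATG8 genes with NBR1 and for 6 lists of autophagy genes, with each gene as a point, the list median as a black bar and the median of all genes as a dashed line. Filled points pass an adjusted p of 0.05; the ATG8 genes with NBR1 and the ATG9 and ATG18 list have the highest medians, 0.44 and 0.45, and the upstream regulators the lowest, 0.07.

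These are whole seedlings, so a change in how many cells of a type were present and a change in RNA per cell cannot be told apart. The marker counts below use the same threshold, at which 35.0% of all genes tested were called higher and 36.8% lower. Between the groups, root markers moved in the same direction as the ATG8 levels. Endodermis markers, of which 5 of 6 rose, summed to 111.3 to 130.3 RPKM on glutamate and 57.7 to 85.8 RPKM on ammonium nitrate, and their highest and lowest libraries were glutamate library 2 and ammonium nitrate library 3, as for the ATG8 sum. Root hair markers, of which 5 of 5 rose, summed to 43.5 to 63.5 RPKM on glutamate and 18.3 to 35.97 RPKM on ammonium nitrate. They were lowest in ammonium nitrate library 3 but highest in glutamate library 3, so within the glutamate group they did not follow the ATG8 sum. Markers of suberized root cells, of which 6 of 6 rose, summed to 103.3 to 119.5 RPKM on glutamate and 56.9 to 61.8 RPKM on ammonium nitrate. They were also highest in glutamate library 2 and lowest in ammonium nitrate library 3, the latter at 56.9 RPKM against 57.0 RPKM in library 2. Their lowest glutamate library was library 3, where that of the ATG8 sum was library 1. Leaf markers, of which 5 of 5 fell, summed to 10352 to 11749 RPKM on glutamate and 23428 to 24964 RPKM on ammonium nitrate. Nearly all of this sum came from RBCS1A and LHCB1.3. RBCS1A averaged 7644 RPKM on glutamate and 14599 RPKM on ammonium nitrate, and LHCB1.3 averaged 3403 RPKM and 9415 RPKM. Guard cell markers, of which 3 of 3 fell, summed to 14.1 to 16.3 RPKM on glutamate and 42.8 to 47.7 RPKM on ammonium nitrate. Of the 5 vascular markers 2 rose, 1 fell and 2 missed the threshold. Their sums overlapped, at 106.8 to 121.2 RPKM on glutamate and 103.1 to 114.7 RPKM on ammonium nitrate. Every marker had recovered reads in both groups. The fewest were those of the guard cell marker EPF1, with 110 on glutamate and 180 on ammonium nitrate. Markers of both root and shoot were thus present, as the label whole seedling says. The part of tissue makeup in the ATG8 and NBR1 levels was not tested.

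**Figure D4:**
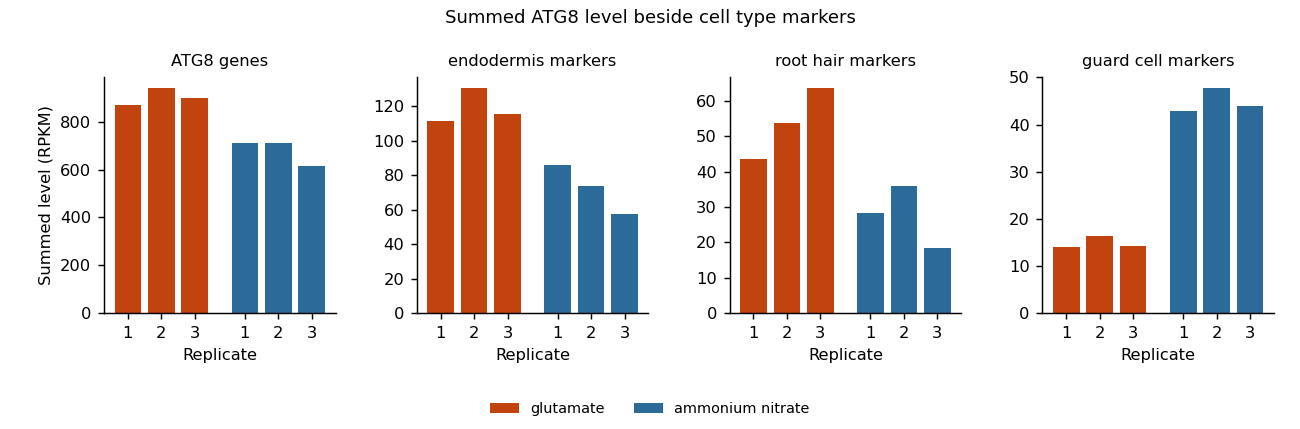
Summed RPKM of the 9 ATG8 genes and of endodermis, root hair and guard cell markers in each library. Glutamate bars stand above ammonium nitrate bars for the ATG8 sum and for both root lists, and below them for guard cell markers, at 14.1 to 16.3 RPKM on glutamate and 42.8 to 47.7 RPKM on ammonium nitrate.

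The 300 bases before the RefSeq gene start are shown for 3 of the genes: ATG8A, which changed most, ATG8F, which changed least of those that passed, and NBR1. The letters TGACG, the core that TGA factors such as TGA9 are known to bind, and CACGTG, the G-box core that HY5 is known to bind, were searched on both strands and are in capitals where found. In TAIR10.1 the windows are chr4:11655262-11655561 on the plus strand for ATG8A, chr4:9308539-9308838 on the minus strand for ATG8F and chr4:12740732-12741031 on the plus strand for NBR1.
ATG8A: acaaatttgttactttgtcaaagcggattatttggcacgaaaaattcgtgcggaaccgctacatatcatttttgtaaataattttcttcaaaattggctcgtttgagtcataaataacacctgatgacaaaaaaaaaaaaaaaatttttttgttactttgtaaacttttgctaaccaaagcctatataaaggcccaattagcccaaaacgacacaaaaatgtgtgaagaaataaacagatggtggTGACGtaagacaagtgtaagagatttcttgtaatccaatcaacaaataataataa
ATG8F: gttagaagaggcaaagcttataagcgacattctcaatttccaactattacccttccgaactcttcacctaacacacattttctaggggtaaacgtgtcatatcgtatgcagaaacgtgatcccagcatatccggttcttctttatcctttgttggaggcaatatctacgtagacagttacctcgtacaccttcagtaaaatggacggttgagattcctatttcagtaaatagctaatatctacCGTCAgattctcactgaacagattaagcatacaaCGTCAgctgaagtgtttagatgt
NBR1: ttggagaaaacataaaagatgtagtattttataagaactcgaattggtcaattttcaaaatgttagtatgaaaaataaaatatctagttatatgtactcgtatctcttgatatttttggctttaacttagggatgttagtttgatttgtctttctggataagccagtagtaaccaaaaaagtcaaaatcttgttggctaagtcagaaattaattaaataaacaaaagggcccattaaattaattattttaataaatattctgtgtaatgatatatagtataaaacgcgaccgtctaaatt
ATG8A held TGACG once and ATG8F held it as CGTCA, the same letters on the other strand, in 2 places. NBR1 held neither TGACG nor CACGTG. Over the 10 genes, TGACG was in 6 windows, those of ATG8A, ATG8E, ATG8F, ATG8G, ATG8H and ATG8I, and in 22.1% of the 19303 windows of the same length before tested genes. CACGTG was in 0 of the 10 windows and in 7.9% of all windows. A further motif, TTGAC, was also searched on both strands and is not capitalised above. It was in 4 of the 10 windows and in 50.8% of all windows. All 6 genes whose window held TGACG rose, with log2 fold changes from 0.21 (ATG8F) to 0.85 (ATG8A). Of the 4 without it, ATG8B, ATG8D and NBR1 rose and ATG8C did not pass. The log2 fold changes of these 4 ran from 0.10 (ATG8C) to 0.54 (NBR1). Since 9 of the 10 genes rose, these counts cannot show whether the motif goes with a rise, which was not tested. The windows of ATG8H and ATG8I overlap neighbouring genes. A match describes letters only, and binding was not measured here.

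The genes whose profile over the 6 libraries lay nearest to NBR1 were AT5G61190, AT2G37150 and ALA2, which encodes an aminophospholipid ATPase. Likeness was the Euclidean distance between log2(RPKM + 1) profiles centred on their means, and the distances were 0.0498, 0.0577 and 0.058. AT5G61190 was at 10.99 ± 0.28 RPKM on glutamate and 7.15 ± 0.142 RPKM on ammonium nitrate, and ALA2 was at 20.5 ± 0.332 RPKM on glutamate and 13.9 ± 0.176 RPKM on ammonium nitrate. For the summed ATG8 level the nearest were RWA1, known for cell wall acetylation, ATMG00180 and AT5G50970, at distances of 0.0453, 0.0572 and 0.06. Such closeness was common with 6 libraries, since 772 tested genes lay within 0.2 of NBR1 and 486 within 0.2 of the summed ATG8 level.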

How the data were processed

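Whole-seedling RNA was sequenced in 3 libraries for each nitrogen source. The deposited table gives RPKM values for 33602 genes, which the authors scaled by TMM, as the file's name says. The submitters' processing notes list TAIR10 and SAMtools. The sources used here give no aligner, counter or strand setting. The deposited table also holds a fraction per gene, by its name the largest share of multiply mapped reads. Every value column was mapped to one of the 6 libraries by its title, and 0 columns of other samples were found.

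RPKM times gene length moved in steps of whole reads with 0.5 read added per gene. In each library 95.9% to 96.4% of values were whole to within 0.05 read. The 20032 genes that averaged 1 RPKM or more entered one limma fit (version 3.58.1, R 4.3.3) of log2(RPKM + 1) with a trend on level. Tests were two-sided, and p-values were adjusted by Benjamini-Hochberg over all these genes, with a threshold of 0.05. This scale understates the change of low genes. Ratios are of mean RPKM. A count model was not used, since the values are RPKM; voom on the recovered reads called 7031 genes higher and 7384 lower, against 7013 and 7377. Before use the test was run on simulated data with far fewer changed genes than were called here. The check required recovery only of changes larger than that of any ATG8 gene or NBR1.

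The 10 genes, the lists and the motifs were chosen with earlier results of these data known, among them the increase of ATG8A. From each list up to 4 genes were named, those with the largest absolute log2 fold change that passed, had no overlap between groups and reached 5 RPKM in the higher mean. Other list genes given with values (ATG13A, ATG18B, ATG18E, ATG3, ATG5, ATG10, ATI1, ATI2, TSPO and KIN10) were chosen after their values were seen. Of 66 list entries 1 was dropped because RefSeq gives its identifier another name. Sequences, coordinates and gene names came from TAIR10.1 with its RefSeq annotation, which matched 97.7% of identifiers; the deposited table holds no coordinates. Gene lengths in the table equal a RefSeq transcript length for 34.3% of genes, so levels rest on the authors' gene models. Alternatives tried were other pseudocounts, level filters, scaling, a replicate block, leaving out libraries and dropping genes with multiply mapped reads.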

Additional observations from a re-analysis of the deposited data

How the results depend on the processing

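Over 15 alternatives, 7 to 10 of the 10 genes passed as higher on glutamate and 0 passed as lower, and the fold change of each of the 10 genes stayed above 0. Leaving out 1 library at a time gave 8 to 9 genes, and the ratio of summed ATG8 was 1.27 to 1.36. Equal totals per library raised the median log2 fold change of all genes by 0.0995; all 10 genes then passed and the ratio of summed ATG8 was 1.44. The number of list genes called lower was 6 in the main fit. It became 3 with equal totals per library and ran from 3 to 7 when 1 library was left out. The number called higher was lowest, at 28, without both glutamate library 2 and ammonium nitrate library 3. It was highest, at 43, with equal totals per library. In the main fit, of the 40 tested entries that RefSeq names 25 rose and 3 fell, against 35.0% higher and 36.8% lower over all genes tested. The ATG8F call was also lost without a level filter (adjusted p = 0.0604), where more genes are tested, and with glutamate library 2 and ammonium nitrate library 3 both left out (0.243), which also ended the calls of ATG8E, AT2G37840, ATG6, AT4G08540 and TOR. In these lists and genes the cause was not tested. With the replicate block 9 of the 10 genes and 34 list genes passed as higher. Each gene's group mean was subtracted from log2(RPKM + 1), and the remaining deviations were correlated between glutamate and ammonium nitrate libraries. For same-numbered libraries the correlations were 0.105, 0.0481 and -0.0125, and for differently numbered ones they ran from -0.179 to 0.134. With 3 libraries a group these values cannot show whether same-numbered libraries shared a plate or batch. The planned edgeR test was not run, because the deposited values are RPKM.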
